A study of Homo sapiens with 4 samples.

Results

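The average effect of semagacestat, a small-molecule inhibitor of γ-secretase, was measured over resting and LPS-stimulated microglia-like cells made from the human embryonic stem cell line H9. Of 28943 barcodes in 2 single-cell libraries, 16937 (58.5%) were kept as cells. A kept barcode had at least 30 UMIs (unique molecular identifiers, each a counted molecule) of its most abundant hashtag, which was at least 3 times the next, with 1000 or more genes detected and mitochondrial UMIs at or under 10%. The hashtag, an antibody-borne barcode put on each culture before pooling, gave the culture of each cell. UMIs were then summed per culture, and the mean of the Sema minus Ctrl and SemaLPS minus LPS differences was tested for 15383 genes, with 6 cultures that had the inhibitor against 6 that had not.

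All 12 cultures were started from monocyte-like cells harvested at day 25 of differentiation and were kept for 7 days in a serum-free medium whose key additions were TGF-β, IL-34 and cholesterol. Ctrl cultures had DMSO and PBS, the vehicles. Sema cultures had 2 µM semagacestat over 22 h and LPS cultures had 200 ng/mL lipopolysaccharide, a bacterial cell wall component, in the final 6 h. SemaLPS cultures had both agents on the same schedule. Actinomycin D, which blocks transcription, was present at 5 µM while every culture was detached, controls included. Each condition had 3 cultures, described in the deposited design as biological replicates and numbered 1 to 3. All come from a single stem cell line, and what a shared number marks is not said.

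γ-Secretase is a protease complex that works within the membrane. It cuts the stubs that remain in the membrane after the outer domains of single-pass proteins are shed, among them Notch receptors, APP and, in microglia, TREM2 and CSF1R. The cut of Notch frees an intracellular domain that joins the DNA-binding protein RBPJ and switches on genes such as HES1. Semagacestat blocks that cut. LPS, sensed by TLR4, switches on inflammatory genes through NF-κB and MAP kinases.

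The cultures held 1144 to 1979 kept cells and 34780161 to 60453967 UMIs, with medians of 28051 to 32132 UMIs per cell. The microglia and macrophage markers summed to 7168 to 8212 CPM (UMIs normalized to the culture's total, with TMM scaling between cultures) over the 12 cultures, and C1QC, a complement subunit, stood at 1425 to 1721 CPM before that scaling. The labelled cell type is met in part. TMEM119, which marks microglia in the brain, reached no more than 2.51 CPM, and the transcription factor SALL1 had 16 UMIs in all cultures together. P2RY12 and CX3CR1, of the same marker list, were at 3.55 to 34.9 CPM and 41.2 to 219.8 CPM before scaling. The granulocyte gene MPO and the neuronal gene DCX had 0 UMIs, but not all markers of those lineages were absent. Of the other granulocyte precursor markers ELANE had 0 UMIs, PRTN3 1 and AZU1 107. Of the other neural markers GFAP had 4 UMIs, STMN2 36, MAP2 740 and TUBB3 3516. Monocyte markers summed to 411 to 513 CPM in Ctrl, 430 to 497 CPM in Sema, 1310 to 1347 CPM in LPS and 1289 to 1384 CPM in SemaLPS. Summed fibroblast markers reached 22.0 CPM in Ctrl-2 and 48.9 CPM in SemaLPS-2, against 2.52 to 5.20 CPM in the other 10 cultures. The libraries shared 91 barcodes, 24 of them among the kept cells and 3 of those with the same culture. Asking for a hashtag 10 times the next, in place of 3, left 545 cells in Ctrl-3 and 472 in LPS-3, the fewest of the 12.

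The promoters of 5 genes from gene groups described below are shown. Whether the marked motifs have a part in the inhibitor effect was not tested. They run from 250 bases before to 50 bases after the gene start (RefSeq, GRCh38.p14, on the gene's own strand), and capitals mark a match to a motif. HES1 (chr3:194135898-194136197, plus strand) has the RBPJ motif GTGGGAA, 85 bases before its start. DUSP1 (chr5:172771146-172771445, minus strand) has the cyclic AMP response element TGACGTCA, 125 bases before its start. TYMS (chr18:657403-657702, plus strand), PCNA (chr20:5126573-5126872, minus strand) and MCM7 (chr7:100101348-100101647, minus strand) have matches to E2F motifs, the sites of the factors that drive S-phase genes.
HES1: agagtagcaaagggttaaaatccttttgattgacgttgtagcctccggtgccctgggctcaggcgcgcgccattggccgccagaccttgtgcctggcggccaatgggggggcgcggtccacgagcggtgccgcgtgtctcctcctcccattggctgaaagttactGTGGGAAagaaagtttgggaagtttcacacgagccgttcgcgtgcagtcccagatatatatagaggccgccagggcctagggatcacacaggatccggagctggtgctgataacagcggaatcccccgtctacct
DUSP1: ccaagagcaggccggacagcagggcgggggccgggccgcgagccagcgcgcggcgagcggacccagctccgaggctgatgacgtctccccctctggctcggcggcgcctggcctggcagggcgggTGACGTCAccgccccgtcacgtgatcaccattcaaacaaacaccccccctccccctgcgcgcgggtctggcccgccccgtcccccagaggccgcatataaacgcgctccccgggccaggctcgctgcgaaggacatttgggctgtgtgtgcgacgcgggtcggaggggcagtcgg
TYMS: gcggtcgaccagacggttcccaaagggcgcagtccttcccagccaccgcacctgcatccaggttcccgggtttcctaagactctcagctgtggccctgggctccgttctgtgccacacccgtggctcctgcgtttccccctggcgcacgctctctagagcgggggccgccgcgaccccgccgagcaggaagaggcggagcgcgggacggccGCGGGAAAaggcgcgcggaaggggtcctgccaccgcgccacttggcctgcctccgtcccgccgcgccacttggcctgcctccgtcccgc
PCNA: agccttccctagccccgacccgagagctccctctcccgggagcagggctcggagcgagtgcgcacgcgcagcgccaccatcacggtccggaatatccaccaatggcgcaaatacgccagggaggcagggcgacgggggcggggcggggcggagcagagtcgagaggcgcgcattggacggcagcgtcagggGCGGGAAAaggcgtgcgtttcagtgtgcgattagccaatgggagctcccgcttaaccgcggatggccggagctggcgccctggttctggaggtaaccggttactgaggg
MCM7: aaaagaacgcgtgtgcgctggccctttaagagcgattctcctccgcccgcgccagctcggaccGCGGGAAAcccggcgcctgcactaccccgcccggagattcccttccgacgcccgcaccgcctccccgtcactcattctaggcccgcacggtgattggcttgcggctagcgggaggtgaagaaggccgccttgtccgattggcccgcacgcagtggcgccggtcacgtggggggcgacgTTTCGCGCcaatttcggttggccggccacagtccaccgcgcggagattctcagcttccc

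On average over both LPS levels, semagacestat changed many genes by little. HES1, a Notch target, fell by 0.89 on the log2 scale. A set of 11 immediate-early genes fell, as did CD9 and SPP1 of disease-associated microglia, and 25 S-phase genes and the microglial genes AIF1 and BIN1 rose. At an adjusted p under 0.05, 976 of 15383 genes (6.34%) were called, 592 of them higher (3.85%) and 384 lower (2.50%). The median size of the called changes was 1.107-fold (0.147 on the log2 scale). Only 25 called genes changed by more than 1.5-fold and 8 by more than 2-fold, and of those 8 all but THBS1 were under 0.5 CPM. Of the 5275 genes with a mean of at least 20 CPM, 677 (12.8%) were called, 7.60% higher and 5.23% lower. The count of 976 was 630 without Ctrl-2, 635 without Sema-2 and 572 without Ctrl-3. It rests on the replicate number as a block. Without it 7 genes were called, namely HES1, DUSP1, BLVRB, EGR3, IL3RA, CRYBB1 and GAL3ST4, with adjusted p from 0.00125 to 0.0227. Unadjusted p under 0.05 was reached by 2830 genes with the block and 1458 without it.

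The inhibitor effects at the 2 LPS levels come from separate cultures. Without LPS 456 genes were called (2.96%) and with LPS 241 (1.57%). Of the genes called without LPS, 402 of 456 (88.2%) had the same sign with LPS, and 206 of 241 (85.5%) of those called with LPS had the same sign without it, against 9039 (58.8%) of all genes. Over the 5275 genes of at least 20 CPM the effects had a Pearson r of 0.486 and a Spearman rho of 0.448. Over all genes r was 0.0066 and rho 0.182. These correlations are across genes, which are not independent and share each culture's depth. Of the 976 genes called on average, 68 were called at both levels, 296 without LPS only, 140 with LPS only and 472 at neither. The difference between the levels was itself called for 10 genes (0.0650%), and 2 of these, LUM and COL3A1, are fibroblast markers that were high in Ctrl-2 and SemaLPS-2 alone. The cultures with and without inhibitor did not overlap at either level for 104 of the 976 called genes, against 171 (1.11%) of all genes.

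**Figure D1:**
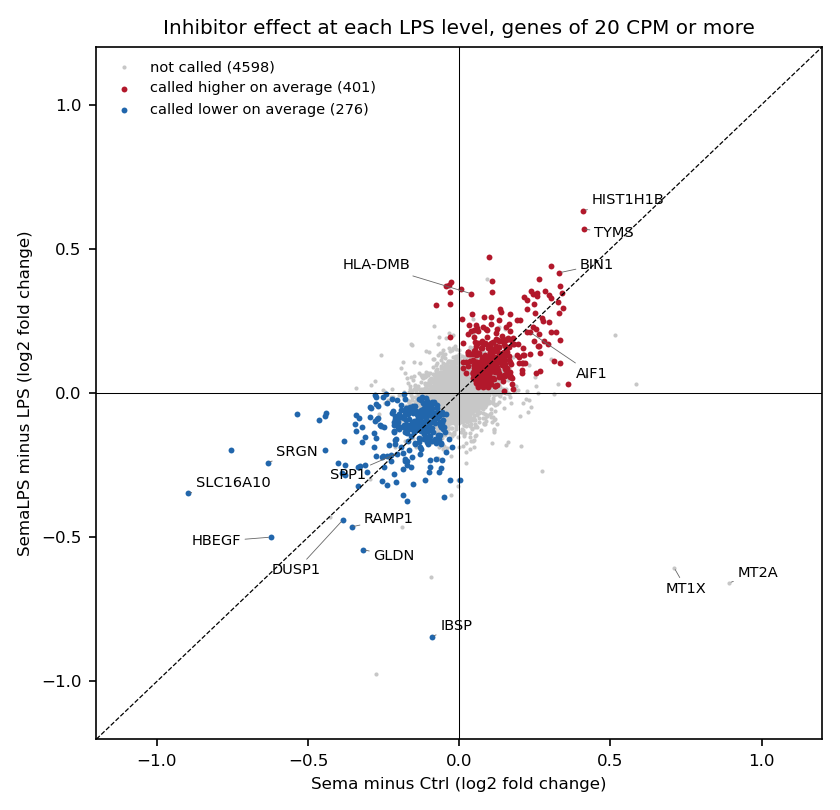
Log2 fold change of Sema minus Ctrl (x axis) against SemaLPS minus LPS (y axis) for the 5275 genes of at least 20 CPM, 1 point per gene, with the dashed line at equality. The 401 genes called higher on average (red) lie mostly in the upper right and the 276 called lower (blue) in the lower left, while MT1X and MT2A, not called (grey), lie far in the lower right.

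The plot of the effects at each LPS level shows where the average summarises both and where it hides a difference. DUSP1, HBEGF and TYMS lay near the line of equality. HLA-DMB and IBSP lay near an axis, with most of their change in cultures with LPS. MT1X and MT2A had opposite signs at the 2 levels, so that their average was close to 0.

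HES1, a transcriptional repressor and classic Notch target (GRCh38 chr3:194136145-194138732, plus strand), was at 3.29, 3.16 and 2.73 CPM in Ctrl-1, 2 and 3 and at 1.42, 1.64 and 1.82 CPM in Sema-1, 2 and 3. With LPS it was at 2.99, 2.85 and 2.75 CPM, and at 1.62, 1.60 and 1.45 CPM with LPS and inhibitor. Every culture with the inhibitor was below every culture without it. HES1 fell by 0.89 on the log2 scale (SE 0.087, adjusted p = 4.55e-05), by 0.89 without LPS and by 0.88 with it, from 61 to 135 UMIs per culture. HES1 was the 1 gene called among 10 tested Notch targets (10%, against 6.34% of all genes), whose median log2 change was -0.12. Of 9 Notch targets with a promoter in the RefSeq table, 5 held GTGGGAA on either strand, against 6.28% of all 27305 promoters and 3.47% of those of genes called lower.

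Of 12 Notch receptors, ligands and RBPJ, 1 was called (8.33%, against 6.34% of all genes), namely NOTCH2, a Notch receptor. It stood at 18.9, 21.5 and 19.2 CPM in Ctrl and 19.8, 22.3 and 21.9 CPM in Sema, and at 32.8, 35.5 and 31.7 CPM in LPS and 34.5, 38.6 and 36.4 CPM in SemaLPS. The groups overlapped, but each inhibitor culture was above the same-numbered control, and NOTCH2 rose by 0.12 (SE 0.029, adjusted p = 0.023), a call that some single cultures decide. None of the 6 γ-secretase subunits was called. Of 23 tested substrates of the enzyme, 4 (17.4%) fell and none rose at the RNA level. Over all genes 2.50% were called lower, and 5.23% of those of at least 20 CPM. The 4 substrates were ALCAM, an adhesion molecule (-0.18), SIRPA, the receptor of the CD47 signal (-0.13), TREM2, a lipid-sensing receptor (-0.10), and CXCL16, a membrane-bound chemokine (-0.09). ALCAM was at 217, 262 and 262 CPM in Ctrl, 192, 211 and 219.8 CPM in Sema, 301, 310.0 and 312 CPM in LPS and 255, 296 and 302 CPM in SemaLPS. The ranges met at both levels although each pair moved down (SE 0.025, adjusted p = 0.00071).

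**Figure D2:**
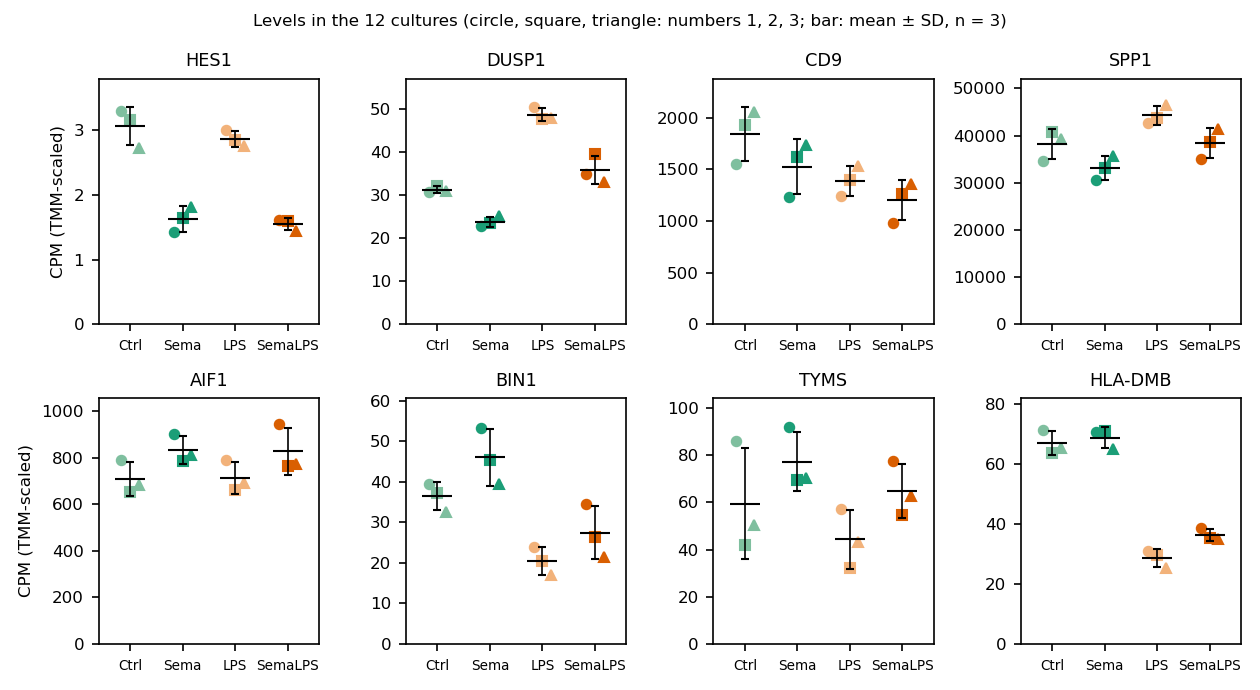
CPM (y axis, linear from 0) in each of the 12 cultures for 8 genes, by condition (x axis), with the mean and SD of 3 cultures. HES1 and DUSP1 show no overlap between cultures with and without inhibitor at either LPS level, whereas CD9, AIF1 and TYMS overlap, with number 1 cultures apart from the others in every condition.

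Immediate-early genes, which growth factor and stress signals switch on within minutes, were called lower in 11 of 24 cases and higher in none, against 2.50% lower over all genes. Their median was -0.16, against 0.00064 over all genes. Without LPS 7 were called lower (median -0.18) and with LPS 0 (median -0.13), with no called difference between levels. EGR3, a zinc finger factor, was at 8.44, 9.02 and 9.0 CPM in Ctrl and 4.66, 5.92 and 5.30 CPM in Sema, and at 3.77, 4.02 and 3.51 CPM in LPS and 3.23, 2.81 and 2.70 CPM in SemaLPS. Inhibitor and control cultures were apart at both levels, and EGR3 fell by 0.55 (SE 0.067, adjusted p = 0.000277). JUND, a subunit of the AP-1 factor, was at 208, 216 and 231 CPM in Ctrl, 182, 182 and 199.6 CPM in Sema, 271, 257 and 317 CPM in LPS and 239, 259.7 and 269 CPM in SemaLPS. Its groups were apart without LPS and overlapped with it, where pair 2 did not move down (average -0.18, SE 0.025, adjusted p = 0.00101). The others that fell were IER2, EGR1, EGR2, ATF3, FOSL2, NR4A3, MAFF, ZFP36 and NR4A2, by 0.15 to 0.74. Between 6 and 12 members were called lower when any culture was left out, the fewest without Ctrl-3.

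DUSP1, a phosphatase that shuts off MAP kinases (chr5:172768090-172771195, minus strand), was at 30.7, 32.2 and 31.1 CPM in Ctrl and 22.9, 23.5 and 25.1 CPM in Sema. It was higher with LPS, at 50.5, 47.8 and 48.0 CPM, and at 35.0, 39.6 and 33.0 CPM with LPS and inhibitor. The 6 inhibitor cultures lay below the 6 controls of their level, and DUSP1 fell by 0.41 (SE 0.039, adjusted p = 3.46e-05). Of 17 MAP kinase feedback genes, 2 more were called lower on average, each near 0 at 1 level, with no called difference between levels. The phosphatase DUSP6 was at 0.0032 without LPS and -0.30 with it (average -0.15), and the pleckstrin homology gene PHLDA1 at -0.24 and -0.0036 (average -0.12). The ETS factor ETV5 (0.11) rose. In all 23.5% of this list was called, against 6.34% of all genes. The element TGACGTCA, a palindrome that reads the same on both strands, was in 14 of 317 promoters (4.42%) of genes called lower, in 17 of 467 (3.64%) of those called higher, and in 3.16% of promoters of genes tested.

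The 12 largest falls among called genes of at least 20 CPM that moved down in all 6 pairs began with HBEGF. HBEGF, a membrane-anchored ligand of the EGF receptor, was at 44.4, 58.0 and 57.5 CPM in Ctrl, 29.2, 36.7 and 38.1 CPM in Sema, 20.3, 17.9 and 29.9 CPM in LPS and 12.9, 17.7 and 17.3 CPM in SemaLPS. The groups did not overlap, though with LPS only narrowly, and HBEGF fell by 0.56 (SE 0.071, adjusted p = 0.000385). RAMP1, a partner of the CGRP receptor, was at 24.6, 31.1 and 34.6 CPM in Ctrl and 18.6, 24.0 and 28.0 CPM in Sema, and at 18.3, 25.9 and 28.3 CPM in LPS and 14.1, 18.7 and 19.4 CPM in SemaLPS. RAMP1 overlapped between groups, since number 1 cultures were low throughout, but was down by a similar amount in each pair (-0.41, SE 0.031, adjusted p = 7.58e-06). PDE4A, which breaks down cyclic AMP, fell by 0.32 (SE 0.041, adjusted p = 0.000418) and CREM, a cyclic AMP-responsive factor, by 0.33 (SE 0.068, adjusted p = 0.00926). GLDN, a gliomedin gene (-0.43), SIPA1L1, a Rap GTPase activator (-0.33), RUNX3, a transcription factor (-0.31), RGCC, a cell cycle regulator (-0.29), RGS16, a brake on G-protein signals (-0.29), and TNFRSF1B, a TNF receptor (-0.28), completed those 12 together with DUSP1 and IBSP.

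**Figure D3:**
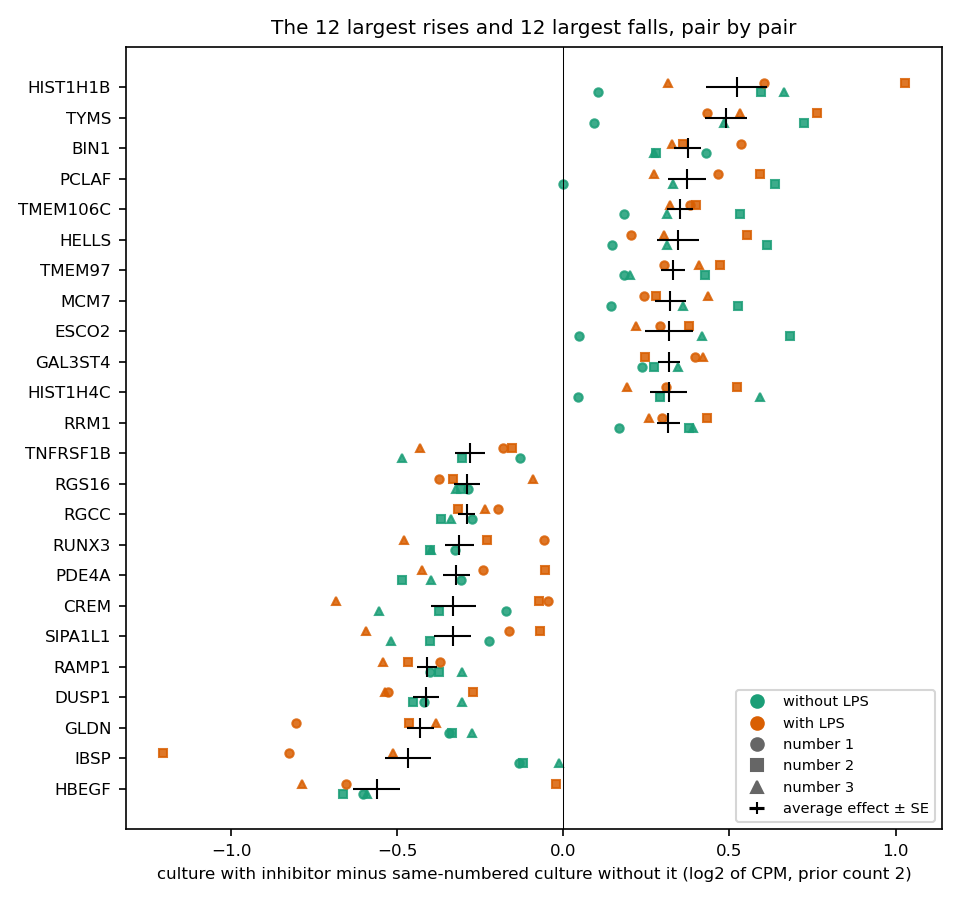
Log2 difference (x axis) of each of 6 pairs of cultures of the same number and LPS level, with the average and its SE, for the 12 largest rises and 12 largest falls among called genes of at least 20 CPM with the same direction in every pair. HBEGF, IBSP and GLDN lead the falls, HIST1H1B, TYMS and BIN1 the rises, and IBSP shows its 3 pairs with LPS far below its 3 pairs without.

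The plot of pair differences shows how evenly a change was spread. DUSP1 and RAMP1 had similar differences in all 6 pairs. IBSP, a bone matrix protein, was at 78.5, 77.6 and 91.2 CPM in Ctrl, 71.5, 71.4 and 90.4 CPM in Sema, 104, 147 and 146 CPM in LPS and 58.8, 63.7 and 103 CPM in SemaLPS. Its groups overlapped without LPS and were apart with it, with changes of -0.09 and -0.84 and an average of -0.47 (SE 0.070, adjusted p = 0.00132). SLC16A10, an aromatic amino acid transporter, had the other order, at -0.90 without LPS and -0.35 with it (average -0.62, SE 0.082, adjusted p = 0.000535), and is not among the 12 because its pair 2 with LPS did not fall. The difference between levels was not called for either gene (SLC16A10, adjusted p = 0.344).

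Genes of the disease-associated microglia state, seen around amyloid plaques, were called lower in 9 and higher in 3 of 27 cases, with a median of -0.05. Over all genes 2.50% were called lower and 3.85% higher. CD9, a tetraspanin (chr12:6199715-6238271, plus strand), was at 1548, 1924 and 2054 CPM in Ctrl and 1229.5, 1616 and 1732 CPM in Sema, and at 1241, 1395 and 1533 CPM in LPS and 983, 1264 and 1358 CPM in SemaLPS. SPP1, the secreted phosphoprotein osteopontin (chr4:87975650-87983426, plus strand), was at 34557, 40761 and 39329 CPM in Ctrl and 30561, 33063 and 35738 CPM in Sema. With LPS, SPP1 was at 42679, 43696 and 46548 CPM, and at 35120.2, 38661 and 41343 CPM with LPS and inhibitor. SPP1 groups were apart with LPS, while the ranges of CD9 overlapped at both levels, number 1 cultures being the lowest in every condition. CD9 fell by 0.25 (SE 0.022, adjusted p = 3.46e-05) and SPP1 by 0.21 (SE 0.020, adjusted p = 3.68e-05). The integrin ITGAX (-0.23), lipoprotein lipase LPL (-0.16), the lysosomal acid lipase LIPA (-0.12), the cathepsins CTSL (-0.11) and CTSB (-0.10), TREM2 (-0.10) and its signalling partner TYROBP (-0.08) fell too. The cathepsin CTSZ (0.09), the chemokine CCL2 (0.25) and the growth factor IGF1 (0.19) rose.

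Genes of resting, homeostatic microglia rose in 8 of 26 cases and fell in 1, with a median of 0.05. The shares over all genes were 3.85% called higher and 2.50% lower. AIF1, the actin-binding protein IBA1 (chr6:31615184-31617021, plus strand), was at 790.4, 653 and 685 CPM in Ctrl, 903, 786 and 812 CPM in Sema, 793, 661 and 691 CPM in LPS and 946, 766 and 775 CPM in SemaLPS. BIN1, a membrane-bending protein and Alzheimer's disease risk gene (chr2:127048027-127107355, minus strand), was at 39.5, 37.3 and 32.6 CPM in Ctrl, 53.3, 45.2 and 39.4 CPM in Sema, 23.8, 20.5 and 17.1 CPM in LPS and 34.5, 26.4 and 21.4 CPM in SemaLPS. For both genes number 1 cultures were high and the ranges met, but all 6 pairs moved up. AIF1 rose by 0.22 (SE 0.016, adjusted p = 7.58e-06) and BIN1 by 0.37 (SE 0.039, adjusted p = 8.68e-05). CRYBB1, a crystallin that marks microglia, was at 36.7, 32.4 and 34.4 CPM in Ctrl and 40.9, 43.9 and 42.8 CPM in Sema, and at 26.3, 27.1 and 25.6 CPM in LPS and 30.9, 30.4 and 30.2 CPM in SemaLPS. The cultures did not overlap at either level (0.26, SE 0.032, adjusted p = 0.000296). GAS6, the ligand of MERTK, and OLFML3, a secreted olfactomedin, rose by 0.18 and 0.16. The folate receptor FOLR2, the ADP receptor P2RY13 and the complement receptor subunit ITGAM rose by 0.20, 0.46 and 0.16. MERTK, a receptor for the uptake of dead cells, fell by 0.20 (SE 0.044, adjusted p = 0.0108). GAL3ST4, a sulfotransferase outside the list, was at 43.2, 43.4 and 38.0 CPM in Ctrl, 51.0, 52.4 and 48.2 CPM in Sema, 15.0, 14.7 and 13.4 CPM in LPS and 19.8, 17.5 and 18.0 CPM in SemaLPS, again with no overlap (0.32, SE 0.032, adjusted p = 6.07e-05).

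S-phase genes, which make nucleotides and copy DNA, rose in 25 of 27 cases, with a median of 0.30. G2 and mitosis genes rose in 8 of 25, with a median of 0.18, against 3.85% called higher over all genes. Of S-phase genes 19 were called higher without LPS and 8 with it, and of G2 and mitosis genes 0 and 1. No difference between levels was called in either list. The 8 average calls of G2 and mitosis genes were 2 to 13 with any culture left out. Each of the 12 cultures but Sema-1, LPS-3 and SemaLPS-3 moved that count by more than 1.5 times. TYMS, thymidylate synthase, was at 86.0, 42.1 and 50.3 CPM in Ctrl, 91.7, 69.6 and 70.3 CPM in Sema, 57.3, 32.1 and 43.3 CPM in LPS and 77.3, 54.5 and 62.6 CPM in SemaLPS. Number 1 cultures were the highest in every condition, and each pair moved up (0.49, SE 0.062, adjusted p = 0.000385). PCNA, the clamp of DNA polymerase, rose by 0.30 (SE 0.043, adjusted p = 0.000935), MCM7, a subunit of the replicative helicase, by 0.32 (SE 0.047, adjusted p = 0.00107), and E2F1 by 0.37 (SE 0.063, adjusted p = 0.00315). An E2F motif (TTTCCCGC, TTTGGCGC or TTTCGCGC, either strand) was in 14 of 23 S-phase promoters, in 52 of 467 (11.1%) of genes called higher, in 8 of 317 (2.52%) of genes called lower and in 4.58% of genes tested. The HELLS helicase, the histones HIST1H1B and HIST1H4C, PCLAF, which binds PCNA, the cohesin factor ESCO2, RRM1, a ribonucleotide reductase subunit, and the membrane protein TMEM106C were among the 12 largest rises.

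The share of dividing cells also rose, but it is scored from genes tested above and is not separate evidence. A dividing cell had at least 3 UMIs over 10 proliferation genes. These were MKI67, TOP2A, CDK1, UBE2C, BIRC5, RRM2, TPX2, CCNB1, CENPF and NUSAP1, of which CDK1, BIRC5 and NUSAP1 are in the G2 and mitosis list. Of the 10, 6 were called higher on average and 0 lower in the same cultures. Without LPS the share was 41.4, 28.3 and 37.2% in Ctrl-1, 2 and 3 and 44.1, 37.9 and 39.1% in Sema. With LPS it was 26.3, 22.3 and 24.7%, and 29.8, 24.3 and 26.1% with the inhibitor as well. All 6 pairs were higher with the inhibitor, from a mean of 30.0 to 33.5%, a difference of 3.50 percentage points (SD 3.05, n = 6 pairs, exact sign-flip permutation test, two-sided p = 0.031, the smallest the design allows). After thinning each cell to 15000 UMIs, which left out 34 to 140 shallower cells per culture, the shares were 17.2 and 20.9% and again all 6 pairs were higher. Pair 2 without LPS, at 9.56 points, made much of the mean, which was 2.37 points without number 2. With the hashtag rule of 10 times the next it was 2.08 points, higher in 4 of 6 pairs (exact permutation p = 0.5).

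Dividing cells were picked by their UMIs of proliferation genes, so leaving them out lowers such genes by selection and is no separate test. With dividing cells left out, 1 of 27 S-phase genes and 0 of 25 G2 and mitosis genes were called, and the medians were 0.06 and -0.08. TYMS was then at 0.16 (SE 0.100, adjusted p = 0.549) and MCM7 at -0.0067. A sum over cells does not tell more dividing cells from more RNA in each. Without number 2, 10 S-phase genes were called. Of the 592 genes called higher, 256 (43.2%) were also called without dividing cells, and of the 384 called lower, 217 (56.5%). HES1 (-0.78), DUSP1 (-0.40), CD9 (-0.20), SPP1 (-0.19), AIF1 (0.26), BIN1 (0.41) and HLA-DMB (0.26) were among those still called.

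**Figure D4:**
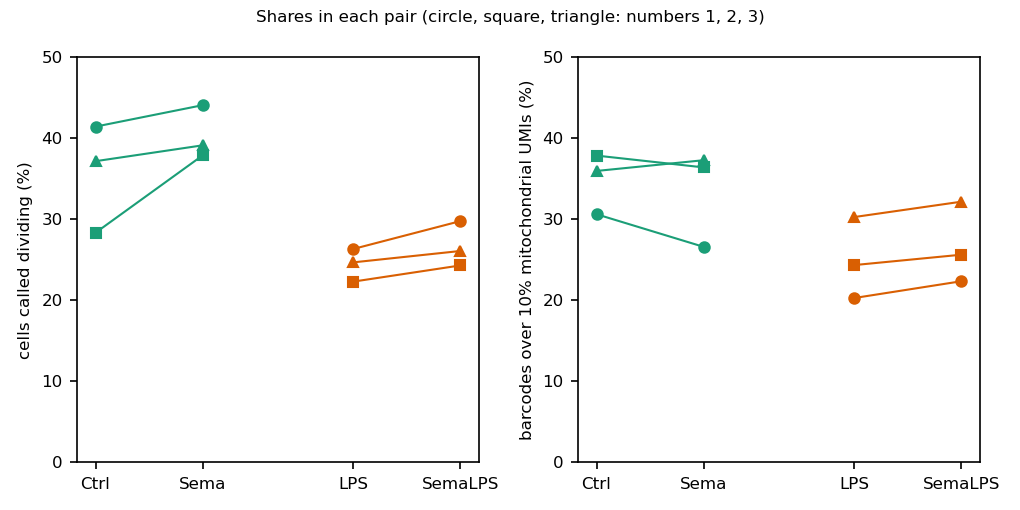
Percent of cells called dividing and percent of barcodes over 10% mitochondrial UMIs (y axes) in each culture without and with the inhibitor (x axis), lines joining cultures of the same number and LPS level. All 6 lines rise for dividing cells, most for number 2 without LPS, while 4 of 6 rise for the mitochondrial share.

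The plot of shares also shows RNA quality. The mean share of barcodes over 10% mitochondrial UMIs was 29.9% without and 30.1% with the inhibitor, a difference of 0.18 points (SD 2.43, n = 6 pairs, exact permutation p = 0.9375). None of 13 mitochondrial transcripts was called.

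MHC class II genes, which present peptides to helper T cells, were called higher in 11 of 12 cases with a median of 0.17, against 3.85% higher over all genes. Without LPS 0 of 12 were called (median -0.03), and with LPS 11 (median 0.35), but the difference between levels was called for 1 of 12. HLA-DMB, which loads peptides (chr6:32934629-32941070, minus strand), was at 71.6, 63.8 and 65.6 CPM in Ctrl, 70.7, 71.0 and 65.0 CPM in Sema, 31.1, 29.6 and 25.2 CPM in LPS and 38.7, 35.3 and 35.1 CPM in SemaLPS. Its groups overlapped without LPS and were apart with it (0.04 and 0.34, average 0.19, SE 0.031, adjusted p = 0.00233). CIITA, the master regulator of the class, was at -0.0028 without LPS and 0.61 with it (average 0.30, SE 0.077, adjusted p = 0.0282). The member called between levels was HLA-DRB1 (0.38, adjusted p = 0.0372), and HLA-DMB had an adjusted p of 0.100 in the same test. HLA-DRB1 reads can be split with near-identical HLA copies, so the counts of HLA-DRB1 are uncertain. The average rests on single cultures, since 3 to 10 members were called when any was left out, with Ctrl-1, LPS-1, SemaLPS-1, Sema-2, LPS-2, Ctrl-3 and Sema-3 each moving the count by more than 1.5 times. Dendritic cells also carry class II. Their markers summed to 91.7 to 115 CPM in LPS and 87.0 to 105 CPM in SemaLPS, and none of 4 tested was called. One of them, LAMP3, ranged from 1.81 to 78.1 CPM over the 12 cultures before scaling. Whether dendritic cells have a part in the class II rise was not tested.

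**Figure D5:**
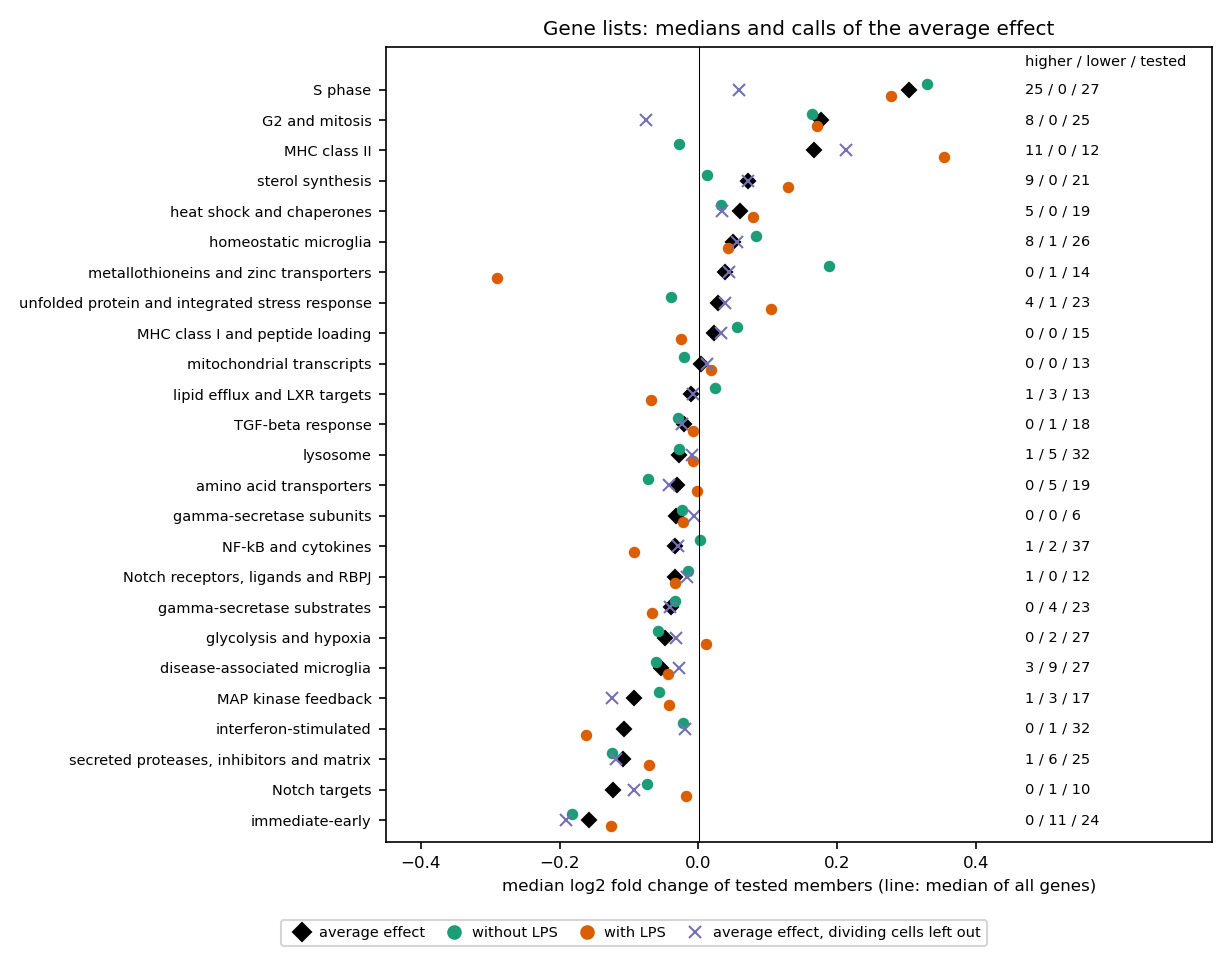
Median log2 fold change (x axis) of the tested members of 25 gene lists for the average effect, each LPS level, and the average without dividing cells, with the counts called higher, called lower and tested at the right. S phase stands at 0.30 and falls to 0.06 without dividing cells, MHC class II stands at 0.35 with LPS and -0.03 without, and the immediate-early medians are all below 0.

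The plot of list medians sets these groups beside the rest. Sterol synthesis genes rose in 9 of 21 cases (median 0.07), against 3.85% called higher over all genes. Among the 9 were FDPS, farnesyl diphosphate synthase (0.15, SE 0.021, adjusted p = 0.000985), and ACAT2, acetyl-CoA acetyltransferase (0.20, SE 0.031, adjusted p = 0.00139). Without LPS 0 of 21 were called (median 0.01) and with LPS 8 (median 0.13), with no called difference between levels. FDPS was at 80.9, 68.6 and 67.7 CPM in Ctrl, 83.3, 74.9 and 67.9 CPM in Sema, 98.4, 83.1 and 82.7 CPM in LPS and 114, 98.7 and 98.0 CPM in SemaLPS. Groups overlapped at both levels, and with LPS the inhibitor cultures were the higher of each pair by more. TMEM97, a sterol-linked membrane protein and one of the 12 largest rises, rose by 0.33 (SE 0.037, adjusted p = 0.000117). The count of 9 sterol synthesis genes was 5 without Ctrl-2 and 4 without Sema-2. Of 13 lipid efflux genes the desaturase SCD rose (0.13), and the cholesterol exporters ABCA1 (-0.16) and ABCG1 (-0.12) and the phosphodiesterase SMPDL3A (-0.24) fell. These calls make up 30.8% of that list, against 6.34% of all genes.

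Among 25 secreted proteases, inhibitors and matrix genes 6 fell and 1 rose (median -0.11), against 2.50% called lower and 3.85% higher over all genes. PLAUR, the urokinase receptor, was at 224, 304 and 308 CPM in Ctrl, 204, 234 and 267 CPM in Sema, 533, 599 and 729 CPM in LPS and 391, 535 and 574 CPM in SemaLPS, overlapping at each level but lower in each pair (-0.28, SE 0.033, adjusted p = 0.000189). SRGN, a granule proteoglycan, was at 146, 178 and 213 CPM in Ctrl, 103, 114 and 128 CPM in Sema, 387, 340.2 and 446 CPM in LPS and 323, 348 and 314 CPM in SemaLPS. SRGN was apart without LPS and overlapped with it, where pair 2 did not fall (-0.44, SE 0.060, adjusted p = 0.00071). SPP1, the protease MMP14 (-0.10), its inhibitor TIMP1 (-0.11) and THBS1, a matrix glycoprotein (-1.15), fell too, and SERPINF1 rose (0.11). THBS1 was at 0.204, 1.55 and 0.327 CPM in Ctrl and 0.248, 0.196 and 0.268 CPM in Sema. With LPS it was at 4.33, 8.82 and 10.6 CPM, and at 3.09, 6.37 and 4.08 CPM in SemaLPS. The high Ctrl value was in Ctrl-2, which also held fibroblast markers, as did SemaLPS-2. Whether such cells had a part in the result was not tested.

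Of 37 NF-κB and cytokine genes 3 were called (8.11%, against 6.34% of all genes): CCL2 rose, and IL1B (-0.21) and the NF-κB subunit REL (-0.18) fell. IL1B, the precursor of interleukin-1β, was at 123, 119 and 94.8 CPM in Ctrl, 109, 99.4 and 114 CPM in Sema, 2369, 1908 and 1956 CPM in LPS and 1624, 1749 and 1467 CPM in SemaLPS. Its groups overlapped without LPS and were apart with it (SE 0.054, adjusted p = 0.0316). Of 32 interferon-stimulated genes only STAT2, a subunit of the factor that drives them, was called (-0.16), 3.1% of the list. Of 15 genes of MHC class I and peptide loading none was called. Among 19 chaperones 5 rose (26.3%), by 0.05 to 0.10, with HSPE1 and HSPA8 among them, and 3 to 7 with any culture left out, where Ctrl-2, Sema-2, Ctrl-3 and SemaLPS-3 each moved the count by more than 1.5 times. Without LPS 0 of the 19 were called (median 0.03) and with LPS 4 (median 0.08), with no called difference between levels.

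Of 23 genes of the unfolded protein and integrated stress response, SDF2L1 (0.15), PDIA6, MANF and DNAJB9 rose and HERPUD1 (-0.13) fell. That is 21.7% of the list, against 6.34% of all genes and 12.8% of those of at least 20 CPM. The 4 higher calls were 1 to 6 with any culture left out, and Sema-1, LPS-1, Ctrl-2, Sema-2, LPS-2, Ctrl-3 and SemaLPS-3 each moved the count by more than 1.5 times. Without LPS 0 members were called (median -0.04) and with LPS 4 (median 0.10). The signs at the 2 levels were opposite for 12 members, with no called difference. Of 32 lysosomal genes 5 fell and CTSZ rose (18.8% called). Of 19 amino acid transporters 5 fell (26.3%), a count that was 2 to 5 with any culture left out. PMEPA1 (-0.17) was the 1 call of 18 TGF-β response genes (5.56%). Of 27 genes of glycolysis and hypoxia 2 were called lower on average (7.41%). HIF1A, a hypoxia-sensing factor, was at -0.28 without LPS and -0.0068 with it (average -0.14), and EGLN3, an oxygen-sensing hydroxylase under 0.5 CPM, at -3.41 and 0.21 (average -1.60). Of 14 metallothioneins and zinc transporters, which handle zinc and copper, only the transporter SLC39A10 (-0.14) was called on average (7.14%, near the 6.34% of all genes).

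The inhibitor effect on MT1X and MT2A, small metal-binding proteins, differed in direction between the 2 LPS levels. They were the 2 called differences among the 7 metallothioneins tested. MT1X was at 15.0, 22.0 and 16.2 CPM in Ctrl and 30.0, 25.9 and 30.5 CPM in Sema, and at 41.9, 37.7 and 35.5 CPM in LPS and 25.1, 26.5 and 24.1 CPM in SemaLPS. The inhibitor cultures were all higher without LPS and all lower with it, at 0.71 and -0.61, a difference between levels of -1.32 (adjusted p = 0.00164). The average of MT1X, at 0.05 (SE 0.070, adjusted p = 0.777), describes neither level. MT2A was at 10.1, 25.1 and 16.9 CPM in Ctrl, 30.0, 26.3 and 39.0 CPM in Sema, 119, 110.2 and 148 CPM in LPS and 62.9, 96.8 and 80.5 CPM in SemaLPS, with changes of 0.89 and -0.66 (difference -1.55, adjusted p = 0.0411). Metallothioneins are near-identical copies, so reads can be split between them.

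Of 101 genes chosen for naming 76 were called on average. Of these, 62 were called with each of the 12 cultures left out in turn, 48 with each number left out and 52 without dividing cells. HIF1A, IL1B, REL, HERPUD1, NOTCH2, PDIA6, PMEPA1, SLC39A10, SLC3A2, HLA-DRB1, CDK1, ESCO2, STAT2 and EGLN3 were those that lost their call without at least 1 culture.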

How the data were processed

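Single-cell RNA was measured in 2 libraries of 1 pool of 12 hashtagged cultures. The authors deposited raw UMI counts of genes and hashtags, written by Cell Ranger 6.0.1 per the file headers. Per the submitters' processing notes, the tools were Cell Ranger 3.0.2 and Seurat 4.1.1 and the build hg38. Which gene annotation was used is not given.

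Counts of kept cells were summed per culture over both libraries. The quasi-likelihood F test of edgeR 4.0.16 (R 4.3.3; genes kept by filterByExpr, TMM scaling) was fitted with condition and replicate number as terms (6 residual degrees of freedom), with Benjamini-Hochberg adjustment over 15383 genes and a threshold of 0.05. It was tested on simulated counts. SE is the log2 fold change over the root of F, and pair differences use log2 CPM with a prior count of 2. No doublet caller was run, and 2 cells of 1 culture in a droplet carry 1 hashtag. Same-numbered cultures deviated together (r from 0.42 to 0.75 in 18 pairs of cultures, against -0.53 to 0.22 in 36 pairs of other numbers, over 5275 genes), so the number was kept as a block. P-values measure the spread between cultures of 1 line.

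The lists, named genes and comparison were chosen with earlier results of these data known. Named genes were the 12 largest rises and falls of at least 20 CPM with the same direction in 6 pairs, up to 3 per list by adjusted p, and up to 6 by the difference between levels; other called members of a list are named with it. Gene positions are from GENCODE v29, which held 15184 of the genes tested, and promoters from RefSeq, which held 78 of 101 named genes.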

Additional observations from a re-analysis of the deposited data

Results flagged for a closer look

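Among the 101 named genes, 9 had 1 of their 6 pair differences (log2, inhibitor minus control, same number and LPS level) far from the other 5. Chance gives about 1 in 20 such cases, and all 9 were pairs with LPS. GLDN in pair 1 was at -0.80, against -0.46 to -0.28 in the others. LIPA in pair 1 was at -0.25, against -0.12 to -0.06. HBEGF in pair 2 was at -0.022, against -0.79 to -0.59, and JUND in pair 2 was at 0.014, against -0.25 to -0.18. The other 5 were in pair 3. IFI6, an interferon-stimulated gene, was at -2.14, against -0.39 to 0.18, with 194 CPM in LPS-3 and 27.8 to 43.8 CPM in the other 11 cultures. REL was at -0.52, against -0.20 to -0.04, and SLC43A2, an amino acid transporter, at -0.31, against -0.16 to -0.08. RGS16 was at -0.092, against -0.37 to -0.29, and TGFB1, the ligand TGF-β1, at 0.026, against -0.11 to -0.06. The share of dividing cells rose by 9.56 percentage points in pair 2 without LPS, against 1.41 to 3.44 points in the others.

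The inhibitor effect differed between LPS levels, by the edgeR test of the difference, for 6 named genes. MT1X differed by -1.32 (adjusted p = 0.00164) and MT2A by -1.55 (adjusted p = 0.0411), up without LPS and down with it. HLA-DRB1 differed by 0.38 (adjusted p = 0.0372), from -0.08 without LPS to 0.30 with it. DOP1B differed by 0.39 (adjusted p = 0.0411), from -0.26 to 0.13. SLC31A1, a copper transporter, differed by 0.29 (adjusted p = 0.0411), from -0.19 to 0.11, and SOCS6, a cytokine signalling suppressor, by 0.31 (adjusted p = 0.0200), from -0.08 to 0.23. The number of genes with such a difference ranged from 1 to 38 with a culture or number left out.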

How the results depend on the processing

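Without the replicate block, 7 genes were called (3 higher, 4 lower) in place of 976, with 2 in Sema against Ctrl, 2 in SemaLPS against LPS and 1 between levels. With a block for each of the 6 pairs, 919 were called on average and 22 between levels. DESeq2's Wald test gave 644 (355 higher), 292 in Sema against Ctrl and 22 between levels. With no filter on low counts 917 genes were called higher, with 1015, 901 and 299 in Sema against Ctrl, SemaLPS against LPS and between levels. Library 1 alone gave 436 (231 higher, 205 lower), 173, 79 and 4, and library 2 alone 590 (339 higher, 251 lower), 177 in Sema against Ctrl and 5 between levels. At most 5% mitochondrial UMIs left 358 cells and 0 calls on average (0 higher, 0 lower; 318 at an unadjusted p under 0.05 by edgeR), 0, 1 and 0 in the others. Without dividing cells 558 were called (316 higher, 242 lower) and 273 in Sema against Ctrl. A hashtag 10 times the next gave 149, 147 and 1 in the 2 levels and between them, at most 20% mitochondrial UMIs 2 between levels, and leaving out cells over 2 times the median UMIs 2.

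With 1 culture or number left out the average gave 411 to 971 calls, 188 to 613 higher and 185 to 431 lower. The count of higher calls was 393 without LPS-1, 383 without Ctrl-2, 372 without Sema-2 and 329 without Ctrl-3, and of lower calls 247 without Ctrl-2 and 243 without Ctrl-3. Sema against Ctrl gave 69 to 609, namely 69 when Ctrl-3 was left out, 109 for Sema-2, 119 for Ctrl-2, 121 for Sema-3 and 242 for Sema-1. SemaLPS against LPS gave 85 to 300, with 127, 134 and 150 without LPS-1, SemaLPS-1 and SemaLPS-2. Between levels 1 to 38 were called, the most without LPS-3 and 1 without Ctrl-3. The cause of these shifts was not tested. The rise in dividing cells was 2.08 points with the stricter hashtag rule and 2.37 to 4.41 points with a number left out, where the smallest p possible is 0.125.

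Directions turned without dividing cells for MCM7 (-0.0067), and for BIRC5 (-0.078) and CDK1 (-0.15), whose own UMIs were used to leave those cells out. At most 5% mitochondrial UMIs, they turned for DHCR7 (-0.011), DUSP1 (0.0010), HBEGF (0.016), HIF1A (0.050), HSPA8 (-0.16), IBSP (0.16), IER2 (0.17), IL1B (0.39), PDIA6 (-0.17), PMEPA1 (0.30), REL (0.44), SCD (-0.052), SLC3A2 (0.067) and TREM2 (0.14). Of 76 named calls, 32 were lost at most without the block or in those 358 cells, and the calls of HES1 and EGR3 were kept in every alternative in which they were tested. Genes under about 1 CPM have too few UMIs per culture for changes of the typical size to be detectable.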

Other observations

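Genes outside the lists were also called at both LPS levels, chosen here after their values were seen. MS4A6A, a membrane gene of macrophages, rose by 0.30 (SE 0.027, adjusted p = 3.46e-05), by 0.26 without LPS and 0.34 with it. LTC4S, leukotriene C4 synthase, rose by 0.28 (SE 0.027, adjusted p = 3.68e-05) and LST1, a leukocyte gene, by 0.14 (SE 0.015, adjusted p = 8.68e-05). BLVRB, a biliverdin reductase, was at 98.6, 87.6 and 91.0 CPM in Ctrl, 107, 106 and 110.3 CPM in Sema, 76.9, 75.0 and 75.0 CPM in LPS and 96.5, 88.9 and 92.4 CPM in SemaLPS. BLVRB groups were apart at both levels (0.26, SE 0.023, adjusted p = 3.46e-05). In all 68 genes were called on average and at both levels, 41 higher and 27 lower, and 14 of them had no overlap of cultures at either level. Each had the same sign at both levels, which the call on average favours and which is thus no separate result. MT1X, MT2A and PTGDS, not called on average, were called at both levels with opposite signs.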
